A study of Mus musculus with 12 samples.

Results

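The 36 genes described here encode aminoacyl-tRNA synthetases, 20 of them cytosolic enzymes and 16 mitochondrial enzymes whose symbols end in 2. They were chosen by name, with no measured value in the rule but with earlier results of these data known, from the 29838 genes of the expression table. A symbol match was found for 35 of them, and Mars1 was found under its older symbol Mars.

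RNA was sequenced from erythroblasts of the bone marrow of 8-week-old male C57BL/6 mice of wild-type genotype, a background shared by all groups. Pro, Baso, Poly and Ortho are proerythroblasts and basophilic, polychromatic and orthochromatic erythroblasts, in order of maturation, with 3 libraries each and 12 in all. CD45-depleted cells were sorted as negative for CD45, CD11b and Gr1. Pro cells had high CD44 but low Ter119 signal, whereas the later stages were separated by CD44 staining and cell size among Ter119+ cells. A gate of this kind gives a range of maturation, not one cell type. For Ortho replicates 2 and 3 the cell type given is just erythroblast, and they are Ortho by their titles. Neither the labels nor the methods state whether the libraries of a stage came from separate animals, so p-values measure the spread between these libraries, which may be technical.

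An aminoacyl-tRNA synthetase joins one amino acid to its matching tRNA, and the ribosome then reads the charged tRNA. Most amino acids are served by one enzyme for the cytosol and by another, also encoded in the nucleus, for the ribosomes of the mitochondrion. Erythroblasts make very large amounts of hemoglobin in their last divisions, while they shut down most other genes and, later, lose nucleus, mitochondria and ribosomes.

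All 36 genes were lower in Ortho than in Pro, and 0 of 36 were called higher in any comparison. In 15 of 20 cytosolic and 15 of 16 mitochondrial genes at least 50% of the decrease in mean FPKM was already present in Baso. The share was 39.3% to 44.5% in Mars1, Nars2, Vars and Hars, whereas Aars and Cars, the alanyl- and cysteinyl-tRNA synthetases, had means no lower in Baso than in Pro and were lower in Ortho. These shares were counted on the deposited values only, and not over all genes. By the test used below 12 of 36 genes were called lower in Baso, against 8.54% of all genes tested. After each library was centred on its median 2 of 36 were called, against 3.15%. With hemoglobin genes left out it was also 2, against 3.24%. Hars, the histidyl-tRNA synthetase, showed the largest decrease of the 36 as a fold, from a mean of 129 to 20 FPKM (fragments per kilobase of transcript, scaled to the mapped fragments of the library).

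Promoter sequences are shown for the genes in which a searched motif was found, a feature that the choice of members did not use. RefSeq promoters of build GRCm38.p6, each 300 bases with 250 before the start and 50 after it, were matched for 27 of the 36 genes, 13 cytosolic and 14 mitochondrial. Cars, Hars, Lars, Nars, Rars, Vars, Wars, Hars2 and Pars2 were not matched. The letters TGATGNAA, searched on both strands, are the composite element to which heterodimers of C/EBP and ATF factors bind, ATF4 of the amino acid response among them. They were present in 5 of 13 cytosolic promoters (38.5%) and in 0 of 14 mitochondrial promoters, against 3.97% of all 32851 promoters. The windows are written 5′ to 3′ on the strand of the gene, with the motif in capitals, so that a motif on the other strand reads as its reverse complement.
Yars at chr4:129189896-129189923: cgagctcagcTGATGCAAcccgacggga
Gars at chr6:55037961-55037988: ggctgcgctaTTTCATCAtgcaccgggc
Aars at chr8:111033841-111033868: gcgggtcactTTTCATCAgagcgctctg
Iars at chr13:49682127-49682154: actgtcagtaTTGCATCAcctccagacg
Tars at chr15:11399656-11399683: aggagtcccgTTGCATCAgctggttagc
Yars, Gars, Aars and Iars lie on the plus strand and Tars on the minus strand. The motif shown began at base 4 after the start in Yars, at base 10 in Aars and at base 8 in Iars, all inside an annotated exon. Aars held another composite site, not shown, that began at base -112 from the start, also inside an annotated exon. In Gars and Tars the motif lay just upstream of the gene.

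The E-box CACGTG, a palindrome that binds MYC and related factors, was the other motif more frequent in the cytosolic genes. It was present in 4 of 13 cytosolic promoters (30.8%) and in 1 of 14 mitochondrial promoters (7.14%), against 7.15% of all promoters.
Aars at chr8:111033686-111033711: tcaaccctgtCACGTGacactccatg
Iars at chr13:49682051-49682076: ccaatcgccaCACGTGttgtttgtag
Tars at chr15:11399624-11399649: cgcctgtggcCACGTGgcgcacgcgc
Farsb at chr1:78488921-78488946: agacaggcatCACGTGagacagccca
Ears2 at chr7:122067050-122067075: cgaaggagccCACGTGtgtgtttcta
Aars, Iars and Tars carried both motifs at sites that did not overlap. The palindromic form of the NRF1 motif, known from many genes for mitochondrial proteins, was in 0 of the 27 promoters and in 0.971% of all promoters. These matches describe letters in a window and do not show binding. Between Pro and Ortho the 5 genes with the composite motif had log2 fold changes from -2.15 to -1.38, and the other 8 cytosolic genes with a promoter from -1.87 to -0.85, ranges that overlap.

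Values are the FPKM of the authors, which sum to 505624 to 691033 per library, with 11964 to 12297 genes at 1 FPKM or more. The read depth behind them is unknown. FPKM is a relative unit, and the share of hemoglobin genes in the FPKM of a library was 6.98% to 10.7% in Pro. It was 33.2% to 36.7% in Baso and 34.8% to 37.6% in Poly, and reached 47.2% to 52.6% in Ortho. Alas2, the first enzyme of heme synthesis in erythroid cells, was at 265 to 428 FPKM in Pro and at 2044 to 2376 in Ortho, and Xpo7 at 17.5 to 29.9 and 935 to 956. Kit, a receptor of early progenitors, overlapped between Pro (15.3 to 21.6) and Ortho (12.6 to 17.6), and Gata2 was higher in Ortho (22.1 to 31.6) than in Pro (10.9 to 14.6). Cd34 and Myb of the same list of 8 early erythroid genes were higher in Ortho as well by the test used below, whereas Nop56, Ncl, Hspa9 and Myc were lower, and the list summed to 559 to 661 FPKM in Pro and 285 to 299 in Ortho. The 12 neutrophil markers, led by S100a9, summed to 7779 to 9490 FPKM in Pro and 15068 to 18766 in Ortho, although the sort was negative for CD11b and Gr1, and 11 of the 12 were higher by the test used below. All 10 B cell markers were higher in Ortho (84.8 to 141 and 203 to 282 FPKM summed), and so were 3 of the 4 macrophage markers tested (30.0 to 36.3 and 63.6 to 75 over 11 markers, with Marco at 0 in every Pro library). Over the 10 T and NK cell markers the sums were 22.2 to 33.0 and 39.9 to 45.5, with Cd3e at 0 in every Pro and every Ortho library. Of the 10 megakaryocyte markers 8 were lower (80.6 to 145 and 41.8 to 51.1 summed) and Itga2b, the most abundant of them in Ortho, was higher. The part of these other cells in the results on the synthetases was not tested. In sorted bulk RNA, fewer cells of a type and less RNA per cell cannot be told apart.

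The 20 cytosolic genes together made up 0.235% ± 0.0259 (SD, n = 3) of all FPKM in Pro and 0.129% ± 0.00737 in Baso, then 0.0984% ± 0.0045 in Poly and 0.0630% ± 0.00325 in Ortho. The 16 mitochondrial genes made up 0.0402% ± 0.0037 in Pro and 0.0170% ± 0.000865 in Baso, then 0.0151% ± 0.000922 in Poly and 0.0122% ± 0.000485 in Ortho. Both mean shares decreased at each step, and the mitochondrial share lost most of its size at the first. The total includes the hemoglobin genes, whose part was larger in Ortho than in Poly. Mitochondrial shares of Baso and Poly libraries touched at 0.0162%. Summed mitochondrial FPKM was 88.9 ± 6.3 in Poly and 81.9 ± 2.09 in Ortho. Between these stages the median mitochondrial log2 fold change was -0.08 as deposited, 0.03 without hemoglobin genes and 0.07 after centring. The cytosolic medians were -0.26, -0.13 and -0.11. A median cytosolic gene stood at 52.5 FPKM in Pro and 18.4 in Ortho, and a median mitochondrial gene at 12 and 5.26.

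**Figure D1:**
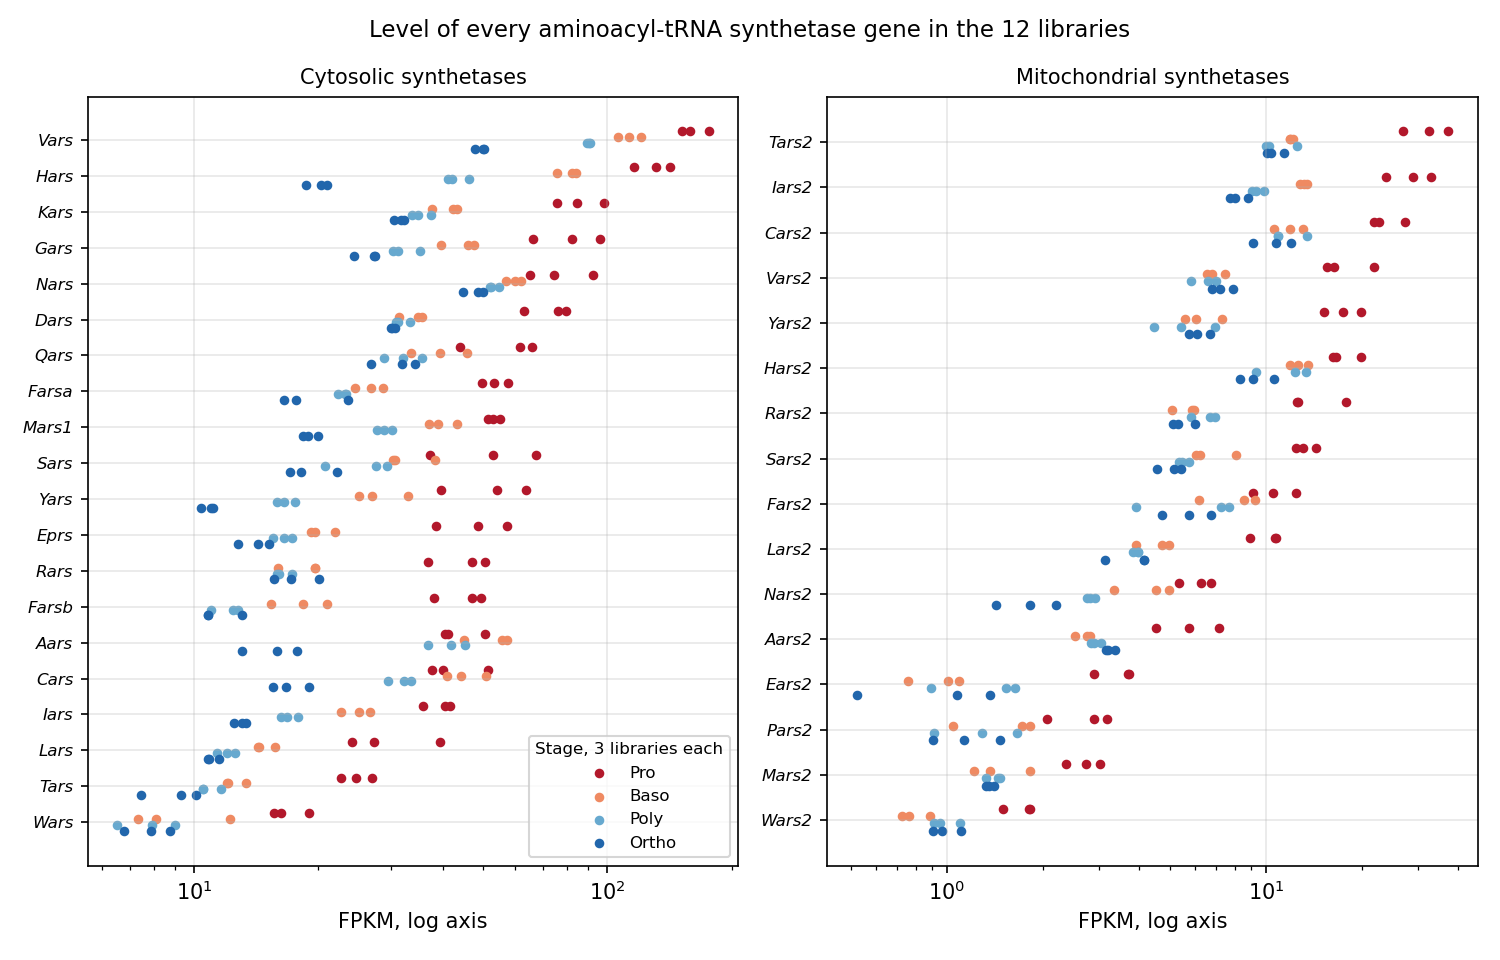
FPKM (log axis) of every synthetase gene in each of the 12 libraries, cytosolic genes on the left and mitochondrial genes on the right, ordered by their mean in Pro; each point is a library and colours mark the stages. In every row the 3 Pro points lie to the right of the 3 Ortho points, and the Pro points of most genes stand apart from the other stages.

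Genes were tested with limma on log2(FPKM + 1), and a gene was called at an adjusted p under 0.05 (Benjamini-Hochberg over all 12994 genes tested) together with a log2 fold change no smaller than 1 in size. All 36 synthetases passed the filter on low values. In Ortho compared with Pro, 28 of 36 were called lower, 18 of 20 cytosolic and 10 of 16 mitochondrial, where 23.8% of all genes tested were called lower and 6.33% higher. With the adjusted p alone all 36 were lower, against 53.2% of all genes. Each Ortho library was below each Pro library for all 36 genes, which held for 53.6% of all genes tested. The median log2 fold change was -1.42 for the cytosolic and -1.18 for the mitochondrial genes, and -0.42 for all genes tested, and all 36 lay below that median. The counts depend on scaling. With each library centred on its median 13 of 36 were called (9.95% of all genes), and with hemoglobin genes left out and the rest rescaled 9 of 36 (8.88%), while all 36 log2 fold changes stayed below 0 under both. An adjusted p under 0.05 was kept by 20 cytosolic and 11 mitochondrial genes after centring and by 18 and 13 without hemoglobin genes. The share of all genes lower by the adjusted p alone was not counted under these scalings. Over all genes, 823 of 3915 calls were higher in Ortho as deposited, 2078 of 3371 after centring and 1991 of 3144 without hemoglobin genes.

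In Baso compared with Pro, 12 of 36 were called lower, 5 cytosolic and 7 mitochondrial, against 8.54% of all genes, and 1.82% of all genes were called higher. Without Pro replicate 2 the counts were 8 of 20 cytosolic and 7 of 16 mitochondrial genes, against 10.4% of all genes, so the cytosolic count depends on that library. With the adjusted p alone, 33 of 36 were lower against 42.1%, all but Aars, Cars and Fars2, and 0 were higher against 14.9%. The stages did not overlap in 31 of 36, against 44.2%. Centring or leaving out hemoglobin genes left 2 of 36 called (3.15% and 3.24% of all genes), and rescaling to the same sum gave 21 of 36 (14.0%). Of all calls, 237 of 1347 were higher in Baso as deposited, 554 of 963 after centring and 488 of 909 without hemoglobin genes. In Poly compared with Pro, 20 of 36 were called lower, 13 cytosolic and 7 mitochondrial, against 12.8% (3.59% were called higher), and with the adjusted p alone all but Aars were lower, against 42.7%. There the count was 11 after centring (7.12%) and 9 without hemoglobin genes (5.71%), and 467 of 2130 calls over all genes were higher as deposited, 1220 of 2145 after centring and 1323 of 2065 without hemoglobin genes.

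The later steps were smaller. In Poly compared with Baso, limma called 0 of 36, against 0.454% of all genes lower and 0.0616% higher. With the adjusted p alone, 9 were lower (Cars, Farsb, Gars, Hars, Iars, Mars1, Vars, Yars and Iars2), against 5.77%. When only the 3 later stages were modelled, blocked on replicate number, 14 were lower by the adjusted p and again 0 were called. The 9 went down to 3 without Baso replicate 3, to 6 without Baso replicate 2 and to 4 without each Poly replicate in turn. The share of all genes lower by the adjusted p was not counted in these alternative models. Whether the changes from 9 are particular to the synthetases is therefore not known. In Ortho compared with Poly, 2 of 36 were called lower, Aars and Hars, against 4.81% (1.05% were called higher), and 8 were lower by the adjusted p alone (Aars, Cars, Hars, Iars, Mars1, Vars, Yars and Nars2), against 21.7%. The 8 are a share of the 36 near that background, and 7 of them were cytosolic. Over the 4 stages the F-test of limma had an adjusted p under 0.05 for all 36 genes, against 78.4% of all genes.

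**Figure D2:**
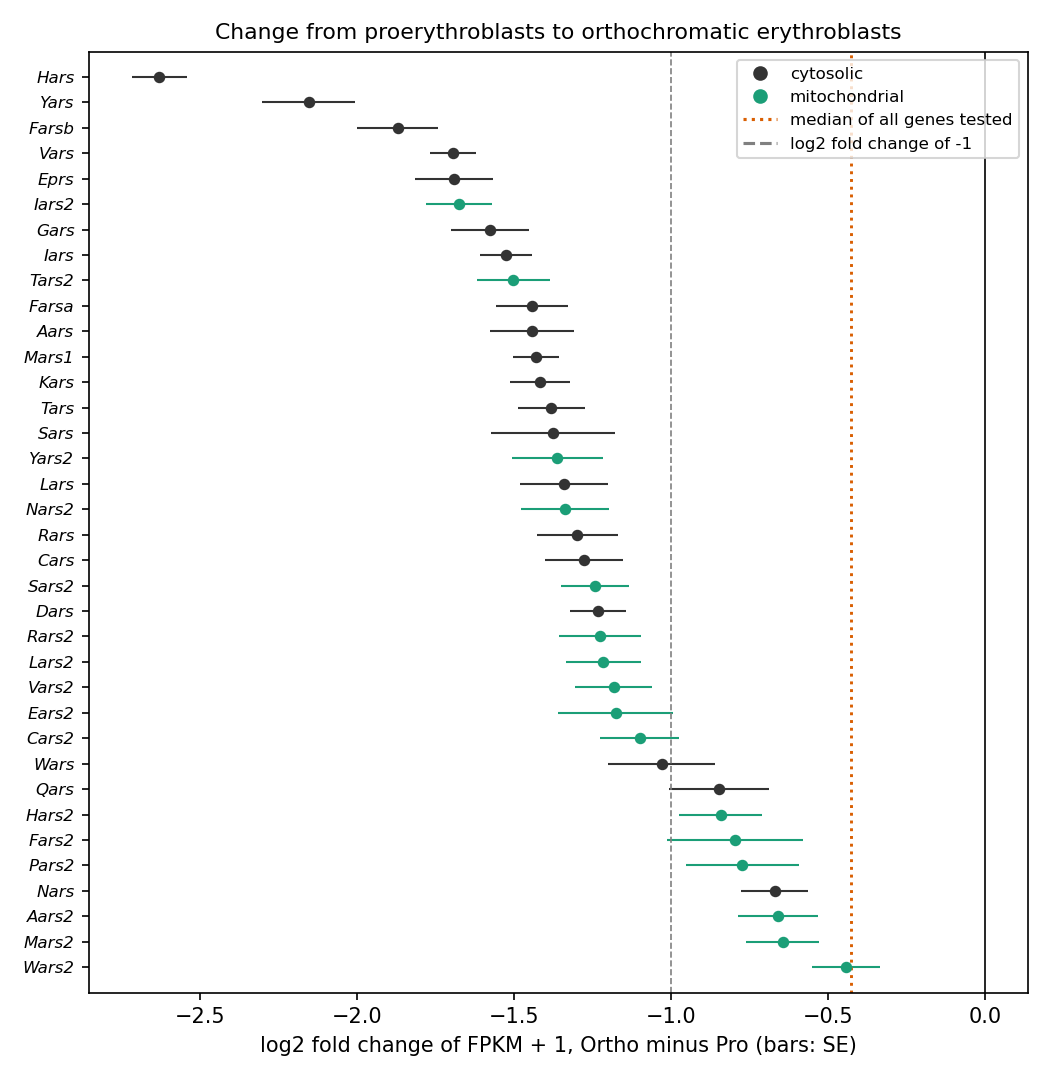
Log2 fold change of FPKM + 1 in Ortho compared with Pro for each synthetase gene, with the SE from limma as bars; the dotted line is the median of all genes tested (-0.42) and the dashed line a log2 fold change of -1. All 36 points lie left of 0, from Hars at -2.63 to Wars2 at -0.44, and cytosolic genes fill most of the upper rows.

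Among the cytosolic genes, Vars, the valyl-tRNA synthetase (chr17:35000987-35016322), had the highest level at every stage. It was at 176, 152 and 159 FPKM in Pro and 113, 106 and 121 in Baso. In Poly it was at 90.7, 89.4 and 90.5 and in Ortho at 50.4, 47.9 and 50. No 2 of the 4 stages overlapped, and the log2 fold change in Ortho compared with Pro was -1.69 (SE 0.07, adjusted p = 6.49e-09). Hars, which lies on chromosome 18, came second in Pro at 142, 116 and 131 FPKM and was at 75.5, 82.3 and 84.1 in Baso. Its values were 42.2, 41.1 and 46.2 in Poly and 18.7, 20.3 and 21 in Ortho. Hars dropped at each step without overlap, to 15.5% of its Pro mean, and its rank among the 36 went from 2 to 7, with a log2 fold change of -2.63 (SE 0.09, adjusted p = 1.83e-09). The called drop from Poly to Ortho was -1.07 (SE 0.09, adjusted p = 2.52e-06).

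Kars and Gars, the lysyl- and glycyl-tRNA synthetases, are each made from one gene for both cytosol and mitochondria. Kars (chr8:111993443-112011323) was at 75.7, 84.3 and 98.4 FPKM in Pro and 37.6, 43.2 and 42.3 in Baso. It was then at 37.5, 34.8 and 33.7 in Poly and 31.7, 32.2 and 30.5 in Ortho. Its decrease was thus mostly complete in Baso, with a log2 fold change of -1.05 (SE 0.10, adjusted p = 6.12e-06) there and -1.42 (SE 0.10, adjusted p = 1.29e-07) in Ortho. Gars (chr6:55038007-55079500) was at 96.2, 66.2 and 82 in Pro and 47.5, 39.7 and 46 in Baso. In Poly it was at 35.2, 30.3 and 31.2 and in Ortho at 27.5, 24.4 and 27.2. It decreased at each step without overlap, by -1.58 (SE 0.13, adjusted p = 4.81e-07) in all. In Pro the levels of Kars, Gars, Nars and Dars overlapped, so their order there is not resolved.

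Yars and Farsb followed Hars in the size of the decrease. Yars, the tyrosyl-tRNA synthetase (chr4:129189760-129219607), was at 54.2, 39.7 and 63.5 FPKM in Pro and 25.1, 27 and 33 in Baso. It was at 17.6, 15.9 and 16.5 in Poly and 11.1, 10.4 and 11 in Ortho, again with no overlap between neighbouring stages. The log2 fold change was -2.15 (SE 0.15, adjusted p = 1.55e-07). Farsb, the beta subunit of the phenylalanyl-tRNA synthetase (chr1:78417975-78488897), was at 47.1, 38.2 and 49.6 in Pro and 15.4, 18.4 and 21 in Baso. Poly and Ortho overlapped at 11, 12.4 and 12.8 and 10.8, 10.8 and 13.1. Its log2 fold change in Ortho was -1.87 (SE 0.13, adjusted p = 1.68e-07), and that of the alpha subunit gene Farsa -1.44 (SE 0.12, adjusted p = 5.18e-07).

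Nars, Qars and Wars changed least among the cytosolic genes. Nars, the asparaginyl-tRNA synthetase on chromosome 18, was at 92.5, 65 and 74.4 FPKM in Pro and 61.7, 56.8 and 60 in Baso. It was at 54.6, 52 and 52.3 in Poly and 50, 44.7 and 48.6 in Ortho, which kept 61.8% of its Pro mean and moved it from rank 5 to rank 2. Its log2 fold change of -0.67 (SE 0.11, adjusted p = 0.000142) passed the adjusted p but not the size limit. Qars, the glutaminyl-tRNA synthetase (chr9:108507706-108515941), was at 44, 65.8 and 61.5 in Pro and 39.3, 45.8 and 33.5 in Baso, where 1 Pro library lay within the Baso range. In Poly it was at 35.7, 28.9 and 32 and in Ortho at 31.8, 34.3 and 26.8, a log2 fold change of -0.85 (SE 0.16, adjusted p = 0.000489). Wars, the tryptophanyl-tRNA synthetase (chr12:108860030-108894174), had the lowest cytosolic level, with 16.2, 19 and 15.6 in Pro, and was called lower just past the limit at -1.03 (SE 0.17, adjusted p = 0.000184). Its 3 later stages overlapped, at 12.2, 7.34 and 8.11 in Baso, 8.99, 7.90 and 6.53 in Poly and 7.88, 6.78 and 8.77 in Ortho.

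Aars and Cars are described apart because of their values. Aars (chr8:111033144-111057664) was at 50.5, 40.6 and 41.1 FPKM in Pro and 57.2, 45.1 and 55.5 in Baso. It was at 42, 36.9 and 45.3 in Poly and 17.8, 13.1 and 15.9 in Ortho. Pro, Baso and Poly overlapped and the Ortho libraries stood below them all, so that 90.7% of the difference between the Pro and Ortho means arose after Poly. The log2 fold change was 0.25 (SE 0.13, adjusted p = 0.131) in Baso and -1.36 (SE 0.13, adjusted p = 1.2e-05) from Poly to Ortho. In Poly compared with Pro it was -0.09, and the sign turned to 0.16 after centring, 0.26 without hemoglobin genes and 0.0152 without Pro replicate 1. Aars shares 1326 exon bases on the same strand with Exosc6, which was at 28.6 FPKM in Pro and 4.43 in Ortho, so reads in that stretch may belong to either gene.

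Cars (chr7:143557230-143600090) was at 51.6, 40.1 and 37.6 FPKM in Pro and 50.8, 40.9 and 44.4 in Baso. It was at 32.2, 29.5 and 33.5 in Poly and 19, 16.7 and 15.5 in Ortho. Pro and Baso overlapped, and each later stage lay below the one before it. The log2 fold change was 0.08 (SE 0.12, adjusted p = 0.6) in Baso and -1.28 (SE 0.12, adjusted p = 2.48e-06) in Ortho. Its sign in Baso turned to -0.10 with all libraries at the same sum, -0.0014 without Baso replicate 1 and -0.0085 without Pro replicate 3. With centring or without hemoglobin genes, Aars and Cars were the 2 synthetases higher in Baso by the adjusted p.

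**Figure D3:**
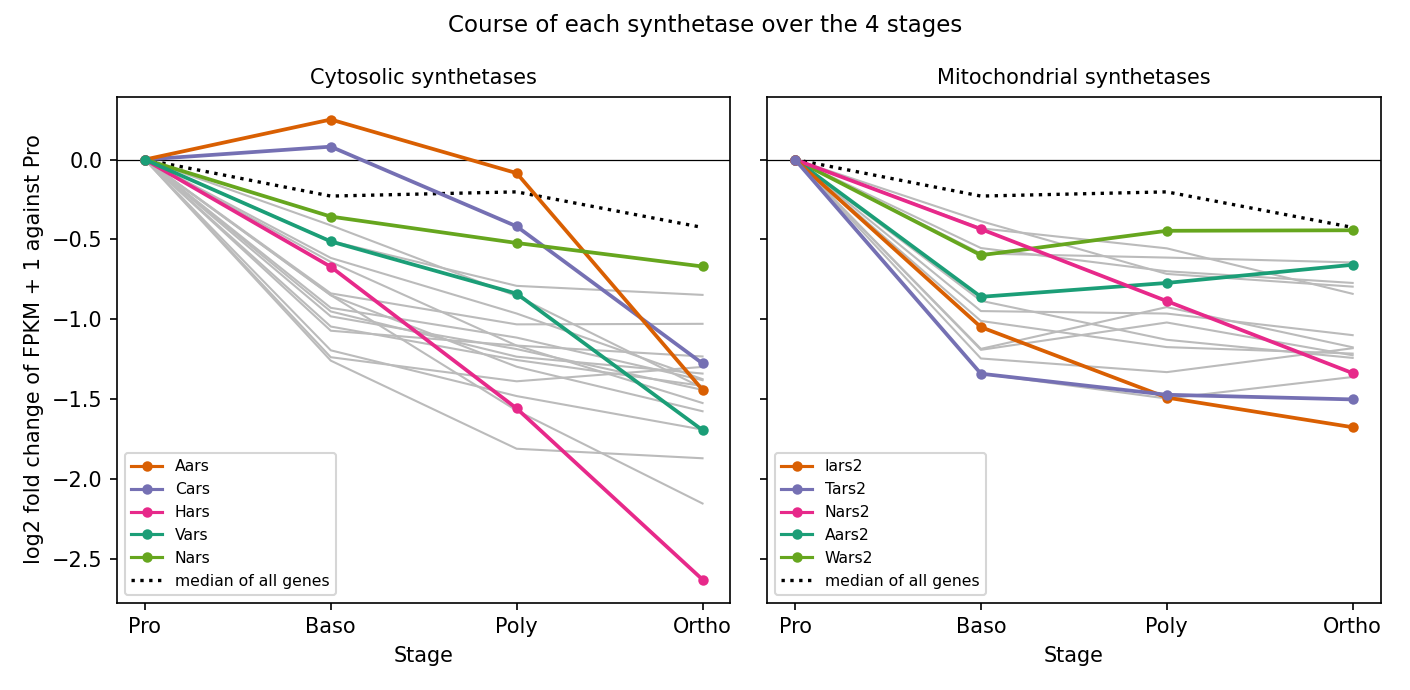
Log2 fold change of FPKM + 1 against Pro at each stage for the cytosolic genes on the left and the mitochondrial genes on the right; each line is a gene, 5 genes a panel are coloured and the dotted line is the median of all genes tested. Most lines drop between Pro and Baso and then flatten, whereas Aars and Cars stay near 0 in Baso (0.25 and 0.08) and Hars goes on down to -2.63; the sign of Cars in Baso and of Aars in Poly depends on the scaling.

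The enzymes of the multisynthetase complex, which holds 8 of the cytosolic synthetases on 3 scaffold proteins, were all lower in Ortho. All 8 (Dars, Eprs, Iars, Kars, Lars, Mars1, Qars and Rars) were lower in Ortho by the adjusted p and 7 were called, with a median log2 fold change of -1.38. Eprs, which joins the glutamyl and prolyl enzymes in one chain, had the largest decrease of the 8 at -1.69 (SE 0.13, adjusted p = 2.78e-07). Of the 12 cytosolic genes outside the complex 11 were called, with a median of -1.44. Of all genes tested 53.2% were lower by the adjusted p and 23.8% were called. The share of the decrease that was present in Baso had a median of 81.2% in the complex genes and 59.1% in the other cytosolic genes, a difference that was not tested. Mars1, the methionyl-tRNA synthetase, had the lowest share of the 8 at 39.3% and a log2 fold change of -1.43 (SE 0.07, adjusted p = 2.23e-08). It shares 68 exon bases with Ddit3 on the opposite strand, which was at 37.0 FPKM in Pro and 16.2 in Ortho. Eef1e1 went from a mean of 28.6 to 5.78 FPKM, Aimp1 from 48.5 to 16.4 and Aimp2 from 23.9 to 8.61. All 3 were called lower, with log2 fold changes of -2.12, -1.51 and -1.33.

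The remaining cytosolic genes, Dars, Iars, Lars, Rars, Sars and Tars for aspartate, isoleucine, leucine, arginine, serine and threonine, were all called lower in Ortho, with log2 fold changes from -1.52 to -1.23. Rars had 97.1% and Dars 91.2% of its decrease in Baso already, whereas Iars had 55.0% and Sars 58.0%. In Sars 1 Pro library, at 37.3 FPKM, lay within the Baso range of 30.3 to 38.4. By catalytic fold, and against 23.8% of all genes called, class I enzymes (18 genes, 15 called) and class II enzymes (17 genes, 12 called) had median log2 fold changes of -1.25 and -1.37 in Ortho, and Eprs holds both folds.

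The mitochondrial genes were lower in level, and Tars2, Iars2 and Cars2 led them in Pro. Tars2, for threonine (chr3:95739976-95760206), was at 37.2, 26.9 and 32.5 FPKM in Pro and 11.9, 11.9 and 12.2 in Baso. It was at 10.2, 12.5 and 10 in Poly and 10.4, 10.1 and 11.4 in Ortho, close to Baso. Its log2 fold change was -1.34 (SE 0.12, adjusted p = 4.78e-06) in Baso and -1.50 (SE 0.12, adjusted p = 4.05e-07) in Ortho. Iars2, for isoleucine (chr1:185284726-185329396), was at 23.8, 29 and 32.9 in Pro and 13.5, 12.8 and 13.2 in Baso. It went on to 9.34, 9.87 and 9.08 in Poly and 8.82, 7.72 and 8 in Ortho, each stage below the one before it. Its log2 fold change of -1.68 (SE 0.11, adjusted p = 8.36e-08) was the largest mitochondrial decrease. Iars2 lies 33647 bases from Eprs and shares 2034 exon bases on the opposite strand with Rab3gap2 (23.0 FPKM in Pro and 10.9 in Ortho). Whether counting used the strand is not stated, so reads of such partners may be mixed. Cars2, for cysteine (chr8:11513977-11550783), was at 21.8, 22.6 and 27.2 in Pro and 10.6, 11.9 and 13.1 in Baso. The later values of 13.5, 10.9 and 10.9 in Poly and 10.8, 12 and 9.11 in Ortho overlapped with Baso, and the change in Ortho was -1.10 (SE 0.13, adjusted p = 9.64e-06). Cars2 shares 422 exon bases with Naxd on the opposite strand.

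Yars2 and Nars2 came next on the log2(FPKM + 1) scale and took different courses. As a share of the Pro mean, Ears2 (28.8%) kept less than Nars2 (29.8%), Tars2 (33.0%) and Yars2 (35.3%). Yars2, for tyrosine (chr16:16302965-16309640), was at 17.5, 15.2 and 19.9 FPKM in Pro and 5.59, 6.06 and 7.28 in Baso. It was at 4.45, 6.93 and 5.44 in Poly and 5.73, 6.70 and 6.10 in Ortho, so that 98.9% of the decrease was present in Baso, and the change in Ortho was -1.36 (SE 0.15, adjusted p = 5.55e-06). Nars2, for asparagine (chr7:96951505-97064758), was at 5.33, 6.25 and 6.73 in Pro and 3.35, 4.97 and 4.53 in Baso. It went down to 2.82, 2.91 and 2.76 in Poly and 2.20, 1.82 and 1.43 in Ortho. No neighbouring stages of Nars2 overlapped, its change was -1.34 (SE 0.14, adjusted p = 4.78e-06), and it was the only mitochondrial gene lower in Ortho than in Poly by the adjusted p.

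Wars2, Mars2 and Aars2, for tryptophan, methionine and alanine, changed least on the log2(FPKM + 1) scale. Wars2 (chr3:99141068-99239186), the lowest of the 36 in Pro, was at 1.50, 1.83 and 1.81 FPKM in Pro and 0.763, 0.723 and 0.886 in Baso. In Poly it was at 1.10, 0.912 and 0.956 and in Ortho at 0.964, 1.11 and 0.908. Its change in Ortho was -0.44 (SE 0.11, adjusted p = 0.00282), close to the median of all genes of -0.42. Mars2 (chr1:55237177-55248470) was at 2.37, 2.74 and 3.02 in Pro and 1.22, 1.82 and 1.37 in Baso. It was at 1.33, 1.47 and 1.45 in Poly and 1.36, 1.41 and 1.33 in Ortho, a change of -0.64 (SE 0.12, adjusted p = 0.000352). Both are near the pseudocount of 1, which makes the log2 fold change of low genes smaller: the Ortho means of Mars2 and Wars2 were 50.5% and 58.1% of their Pro means, and by that measure Hars2 (53.3%) and Fars2 (53.7%) changed less than Mars2. Aars2 (chr17:45506841-45520843) was at 5.73, 4.52 and 7.13 in Pro and 2.52, 2.82 and 2.76 in Baso. It was at 2.90, 2.83 and 3.05 in Poly and 3.37, 3.21 and 3.16 in Ortho, where every library was above those of Baso, and its change from Pro was -0.66 (SE 0.13, adjusted p = 0.000538).

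Of the other mitochondrial genes, Ears2, Lars2, Rars2, Sars2 and Vars2, for glutamate, leucine, arginine, serine and valine, were called lower in Ortho with log2 fold changes from -1.24 to -1.18. Fars2, Hars2 and Pars2, for phenylalanine, histidine and proline, passed the adjusted p only, from -0.84 to -0.77. Fars2 shares 115 exon bases with Lyrm4 and Ears2 89 with Ubfd1, on opposite strands. In 13 of 16 mitochondrial genes at least 75% of the decrease was present in Baso, against 9 of 20 cytosolic genes, on the deposited values and with no share over all genes counted. Poly lay wholly below Baso in 3 of 16 and 15 of 20, where the share of all genes was 15.9%, and Ortho wholly below Poly in 2 of 16 and 13 of 20, where it was 31.3%. The difference between the 2 sets was not tested.

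For 14 amino acids the cytosolic and the mitochondrial gene can be compared in the same library, as the log2 ratio of FPKM + 1, with Farsa taken for phenylalanine. The cytosolic gene was higher in every library for 13 of the 14 pairs, the exception being Tars and Tars2. Means of the cytosolic gene were 0.769 times (Tars) to 19.6 times (Mars1) those of its partner in Pro and 0.839 times (Tars) to 26.3 times (Nars) in Ortho. The ratio was higher in Baso than in Pro for 10 of 14 pairs, with a median change of 0.22. Every Baso library was above every Pro library in 6 pairs, and below in 2 (Hars and Hars2, Farsa and Fars2). The ratio was lower in Ortho than in Pro for 11 of 14, with a median change of -0.35, and 6 of those did not overlap. With no pseudocount the ratio was higher in 12 of 14 pairs in Baso, with a median change of 0.39, and lower in 9 of 14 in Ortho, with a median change of -0.25.

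Hars and Hars2 changed most. Their log2 ratio was 2.78, 2.73 and 2.94 in Pro and 2.57, 2.61 and 2.54 in Baso. It was 2.06, 1.55 and 1.83 in Poly and 0.96, 0.88 and 1.24 in Ortho, a change of -1.79 with no overlap, as Hars went down to 15.5% and Hars2 to 53.3% of their Pro means. The genes lie head to head on opposite strands and overlap by 198 bases, of which 195 are shared by exons. Among the 14 pairs Yars and Yars2, Mars1 and Mars2 (-0.79) and Aars and Aars2 (-0.78) came next and differed by less than their spread, and with no pseudocount the change of Nars and Nars2 (1.08) was larger than theirs. The order depends on the subunit taken for phenylalanine. The ratio of Farsa to Fars2 changed by -0.65 with overlap, and that of Farsb to Fars2 by -1.07 with every Ortho library below every Pro library. The log2 ratio of Yars to Yars2 was 1.58, 1.33 and 1.63 in Pro and 1.98, 1.99 and 2.04 in Baso, above all Pro libraries. It went to 1.77, 1.10 and 1.45 in Poly and 0.84, 0.56 and 0.75 in Ortho, a change of -0.79 from Pro.

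Rars and Rars2 changed least on this scale. Their log2 ratio was 1.92, 1.49 and 1.36 in Pro and 1.31, 1.76 and 1.56 in Baso. In Poly it was 1.14, 1.11 and 1.42 and in Ortho 1.59, 1.53 and 1.44, a change of -0.07 with overlap. For Tars and Tars2 the ratio was -0.45, -0.24 and -0.38 in Pro and 0.03, 0.16 and -0.02 in Baso. It was 0.04, -0.10 and 0.06 in Poly and -0.04, -0.40 and -0.27 in Ortho, a change of 0.12 with overlap. Nars and Nars2 were the only pair with every Ortho library above every Pro library. Their ratio was 3.88, 3.19 and 3.29 in Pro and 3.99, 4.02 and 4.35 in Ortho, as Nars kept 61.8% and Nars2 29.8% of their Pro means.

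**Figure D4:**
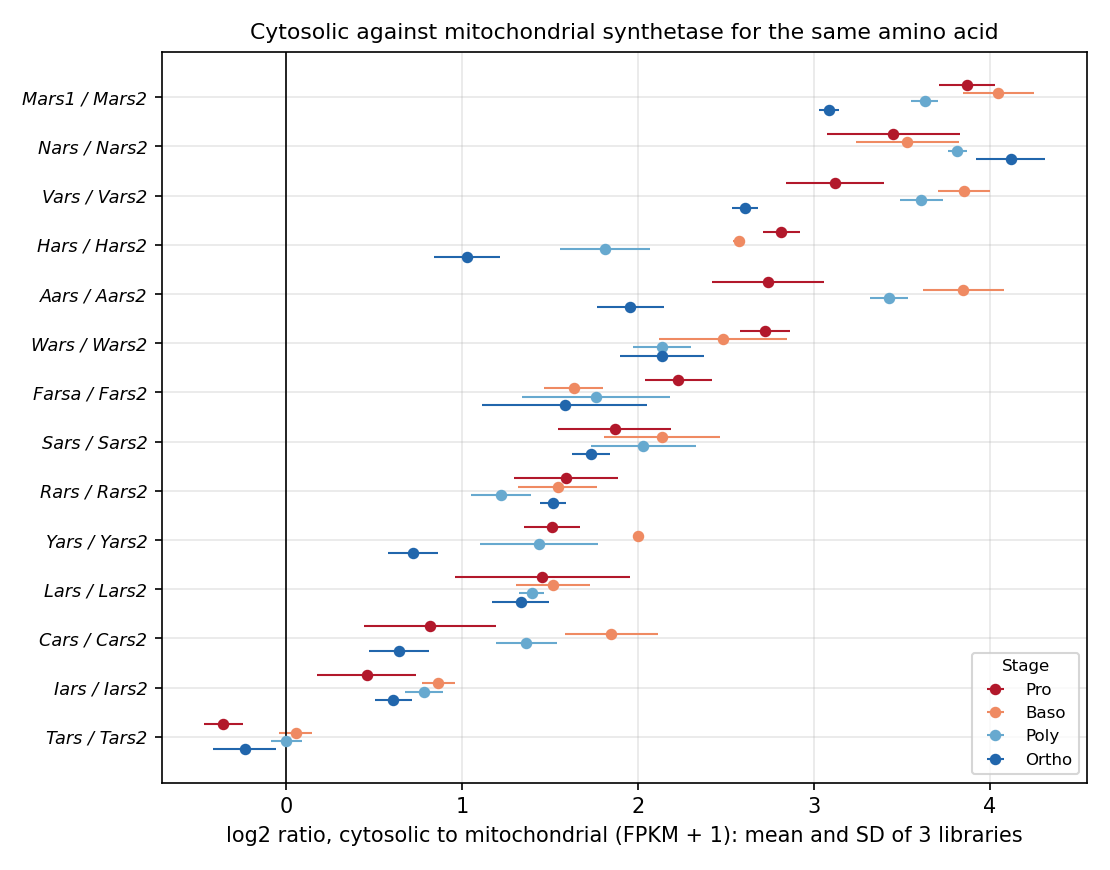
Log2 ratio of FPKM + 1 of the cytosolic to the mitochondrial synthetase gene for 14 amino acids, as mean and SD of the 3 libraries of each stage, ordered by the ratio in Pro. Only Tars and Tars2 have a mean below 0 in Pro; the Hars and Hars2 ratio goes from 2.82 in Pro to 1.03 in Ortho, and that of Nars and Nars2 from 3.45 to 4.12.

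Related genes were counted on lists of the pathway, to be read against the 53.2% of all genes that were lower in Ortho by the adjusted p, the 23.8% called lower and the median of -0.42. Of 14 further enzymes that charge tRNA, edit or modify what is charged, all were lower in Ortho by the adjusted p and 9 were called, with a median log2 fold change of -1.18. Tarsl2, a second cytosolic threonyl-tRNA synthetase, had the largest decrease of this list, from 32.5 to 3.55 FPKM (-2.88, adjusted p = 2.06e-09). Sephs2, of selenophosphate synthesis, was the most abundant at 61.4 in Pro and 33.9 in Ortho (-0.83). Of 34 tested genes for the synthesis of tRNA by RNA polymerase III, its processing and its export, 29 were lower by the adjusted p, 2 were higher (22.7% of all genes) and 20 were called lower, with a median of -1.08. Ssb, which binds the ends of new transcripts of this polymerase, went from 144 to 60.4 (-1.24). The 2 higher genes were Elac1, for a tRNA-cutting enzyme, at 1.48 and 2.45 (0.48, adjusted p = 0.00225), and Maf1, the repressor of RNA polymerase III, at 53.8 and 72.9 (0.43, adjusted p = 0.00502). Of 10 translation factors of the mitochondrion 9 were lower by the adjusted p and 8 were called, among them Gfm1, an elongation factor, from 19.5 to 6.15 (-1.51), with a median of -1.22.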

How the data were processed

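RNA sequencing of 12 libraries (4 stages, 3 each) was used, with stages and replicate numbers taken from the labels. Per the methods and the submitters' processing notes, the authors trimmed reads with cutadapt and Trimmomatic, aligned them to mm10 with HISAT2, processed them with SAMtools, counted genes with featureCounts and deposited FPKM values. Versions, the FPKM tool, the annotation and the use of strand are not given in the sources used here. For library preparation the labels name Trizol with NEBNext Ultra kits and the methods a lysis reagent with KAPA kits. Of 29839 lines 1 repeated identifier was removed, which left 29838 genes, 29785 of them in GENCODE M21, the source of positions, exons and overlaps. Every value column belonged to 1 of the 12 libraries, and no 2 libraries were identical. Low values showed no steps of whole reads (5.62% of ratios in one bin of 0.1 on the log2 scale, 819 genes), so no depth or counting error is given.

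Genes had to reach 1 FPKM in at least 3 libraries, and the 12994 that did were fitted by limma 3.58.1 under R 4.3.3 (trended variance, one model of all libraries) on log2(FPKM + 1), a scale that understates changes of low genes. Two-sided p-values were adjusted by Benjamini-Hochberg over all genes tested, and 5 comparisons were made (Baso, Poly and Ortho with Pro, Poly with Baso, Ortho with Poly) beside an F-test over the stages. The authors' DESeq2 test needs counts and was not repeated. Cytosolic and mitochondrial genes were compared by counts, medians and ratios, with no test. Exact tests of 3 against 3 libraries cannot go below p = 0.1 and were not used. The members, the gene lists and the tests were chosen with earlier results of these data known.

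Values in every library are given for the 5 cytosolic and 3 mitochondrial genes with the highest Pro mean, the 4 of each set with the largest decrease in Ortho, the 3 of each set with the smallest, and the pairs whose ratio changed most and least. Aars, Cars and the ratio of Nars and Nars2 were added after their values were seen. From other lists at most 4 genes were named, those with the largest change in each direction and the highest level. Elac1 and Maf1 were named because they were the higher ones, and Gfm1 for its change. A few items that these rules would name are not reported here. Alternatives were other pseudocounts and filters, other scalings, the adjusted p alone, no variance trend, models of 2 stages, the replicate number as a block and leaving out each library.

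Pairing by replicate number was checked over all genes tested. Deviations from the stage means correlated at 0.156 to 0.319 between libraries of equal number in Baso, Poly and Ortho. Judged by values only, the numbers pair those 3 stages. With Pro the correlations were 0.00524 to 0.0968 for equal numbers and -0.123 to 0.0545 for unequal ones. These ranges overlap, so a pairing of Pro is weak at most and is not resolved. Figures were drawn and promoters searched with Python 3.11.15.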

Additional observations from a re-analysis of the deposited data

How the results depend on the processing

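Of the comparisons, the counts of synthetases called depended on scaling, on the size limit and on the pseudocount, where a changed size limit or pseudocount acts by construction. With the adjusted p as the only criterion 33 of the 36 genes were lower in Baso and 35 in Poly than in Pro, 9 were lower in Poly than in Baso, and 8 from Poly to Ortho. Centring each library on its median left 2 in Baso (3.15% of all genes called lower), 11 in Poly (7.12%), 13 in Ortho (9.95%) and 1 from Poly to Ortho (3.36%). Leaving out the hemoglobin genes and rescaling left 2 (3.24%), 9 (5.71%), 9 (8.88%) and 1 (3.61%). Rescaling to the same sum gave 21 in Baso (14.0%) and 4 from Poly to Ortho (6.86%). A pseudocount of 5 gave 4 in Baso (3.49%), 14 in Poly (6.73%), 20 in Ortho (13.4%) and 1 from Poly to Ortho (2.76%). The 20 in Ortho were 17 cytosolic and 3 mitochondrial genes. With that pseudocount the median change of the cytosolic to mitochondrial ratio was -0.49 in place of -0.35. Leaving out each library in turn gave 10 to 15 in Baso, 19 to 22 in Poly and 27 to 29 in Ortho. The shares of all genes called lower moved as well, over 7.14% to 10.4%, 12.5% to 14.4% and 23.1% to 25.0%. Under a replicate block the counts were 12, 20, 28, 0 and 2, as without it. The shares of all genes called lower were then 8.58%, 12.8%, 23.8%, 0.446% and 4.79%. With pairing the adjusted p count from Baso to Poly was 10 in the model of all stages and 14 in that of the 3 later ones. No share of all genes by the adjusted p was counted beside the 10 and the 14. The block also gave Aars an adjusted p of 0.0269 in Baso, in place of 0.131, with the pairing of Pro by number not resolved. The log2 fold change of Cars in Baso turned to -0.10 at the same sum, -0.0014 without Baso replicate 1 and -0.0085 without Pro replicate 3, in a range of -0.0085 to 0.21 with each library left out in turn. That of Aars in Poly turned to 0.16 after centring, 0.26 without hemoglobin genes and 0.0152 without Pro replicate 1, in a range of -0.15 to 0.0152. For single genes, none reversed in Ortho compared with Pro, and 7 genes missed the adjusted p under at least 1 alternative. The causes were not tested. Limits are the relative unit, the unknown depth, 3 libraries a stage, markers of neutrophils and B cells that were higher in Ortho, and exons shared with neighbouring genes.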

Other observations

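Genes that respond to a shortage of amino acids, many of them targets of ATF4, were found lower and higher, and the share of lower ones in Ortho was near that of all genes. Of 17 tested members of that list, 8 were lower in Ortho than in Pro by the adjusted p of limma (53.2% of all genes tested), 6 were higher (22.7%) and 3 passed neither way, with a median log2 fold change of -0.01 against -0.42 for all genes. In Baso 4 were lower (42.1% of all genes) and 6 higher (14.9%), with a median of 0.18 against -0.23. Asns, the asparagine synthetase, went from 83.2 to 10.9 FPKM between Pro and Ortho (-2.85, adjusted p = 1.56e-07). Atf4 itself was at 165 FPKM in Pro and 229 in Baso, then 211 in Poly and 113 in Ortho, highest in the middle stages. Ppp1r15a, a subunit of the phosphatase that acts on the initiation factor eIF2, rose from 92.3 to 424 FPKM (2.22, adjusted p = 1.81e-06).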
